A study of Sus scrofa with 30 samples.

Results

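PEG3, PEG10, NNAT and NDN are imprinted genes, which in human and mouse are expressed mainly from the copy inherited from the father, and 7 probe sets of a porcine Affymetrix expression array carry 1 of these symbols alone, out of 10110 probe sets with a single symbol for 6790 genes. The 4 genes were chosen by symbol and as signs of how tissue was sampled, because values of saline 30 min replicate 1 had drawn attention to them, so levels on that array are given as a description without a test. PEG10 has 3 probe sets, PEG3 has 2, and NNAT and NDN have 1 each. Of the 7 probe sets, 5 passed the filter on low intensity. The exceptions are 2 probe sets of PEG10, whose intensity stayed between 0.493 and 27.8 on all 30 arrays.

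Imprinting silences a gene on the chromosome from one parent through DNA methylation that is set in the germ line. Many paternally expressed genes are active in the developing and adult brain, and in the mouse the hypothalamus is one of their sites of highest expression. PEG3 encodes a zinc finger protein that in the mouse is needed for maternal care and for normal numbers of oxytocin neurons. PEG10 is derived from a retrotransposon and is essential for the mouse placenta. NNAT encodes neuronatin, a small membrane proteolipid of the endoplasmic reticulum that affects calcium handling, and NDN encodes necdin, a growth suppressor of postmitotic neurons that lies in the human Prader-Willi region.

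Total RNA came from the cerebral cortex of prepubertal farm pigs of a Swedish triple breed, aged 12 to 14 weeks and of both sexes, all anaesthetised with pentobarbital before ventricular fibrillation was induced. The study asked how methylene blue, a dye that inhibits nitric oxide signalling, affects the response of the brain to reperfusion. The 10 groups had 3 arrays each, labelled as biological replicates. CA0, CA5, CA20 and CA30 pigs had 0, 5, 20 or 30 min of cardiac arrest without resuscitation. MB30, MB60 and MB180 pigs had 12 min of arrest and 8 min of chest compressions, and were sampled 30, 60 or 180 min after the return of circulation. They received 7.5 mg/kg/h methylene blue in 55 mL/kg/h saline from 1 min after compressions began. SAL30, SAL60 and SAL180 pigs had the same arrest, compressions, sampling times and 55 mL/kg/h saline without the dye. In both arms the infusion was to end 50 min after the return of circulation. The 30 min groups were therefore sampled during it, and the 60 and 180 min groups after it. Per the treatment protocol CA0 brains were removed immediately after cardiac arrest, so no group is described as free of arrest or of anaesthesia. In bulk tissue, fewer cells of a type and less RNA per cell cannot be told apart.

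The deposited values are intensities on a linear scale, and a trimmed mean (leaving out 2% of probe sets at either end) lay between 300.05 and 300.06 on all 30 arrays. Saline 30 min replicate 1 had 5.00% of 23999 probe sets more than 2-fold away from the mean of the other 29 arrays, and the other arrays had 0.763% to 5.16%. Its median correlation with the other arrays was 0.933, below the 0.944 to 0.970 of the others. Its log2 ratio of 3' to 5' signal in control transcripts was 1.80, within the 1.01 to 3.21 of the others. Arrays MB60 replicate 2 and MB180 replicate 3 had 5.15% and 5.16% of probe sets past 2-fold. The label cerebral cortex could not be checked against the list of cortical excitatory neuron markers, since only NEUROD1 of 13 is on the array under a single symbol and its intensity stayed at or below 36.7.

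On saline 30 min replicate 1, NNAT, PEG10 and 1 probe set of PEG3 stood above every other array, while NDN and the other probe set of PEG3 lay inside the range of the other 29. NNAT had an intensity of 4005 on that array, against 927 and 1006 on SAL30 replicates 2 and 3 and a lowest, median and highest value of 587, 1006 and 1588 over the other 29 arrays. PEG10, on the 1 of its probe sets above the filter, had 4482 on that array, against 1561 and 1301 on its 2 fellow replicates and 949, 1287 and 2610 over the 29. PEG3, on the brighter of its 2 probe sets, had 2628, against 1016 and 1135 on the other SAL30 replicates and 715, 1102 and 1554 over the 29. The value of saline 30 min replicate 1 was thus 2.52 times the highest other array for NNAT, 1.72 times for PEG10 and 1.69 times for PEG3, with no overlap in any of the 3.

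NDN did not share this level. It had 1637 on saline 30 min replicate 1, against 1373 and 1236 on SAL30 replicates 2 and 3 and 1080, 1291 and 1795 over the other 29 arrays, so that 3 arrays were higher. The dimmer PEG3 probe set had 131, against 94.0 and 85.3 on the other SAL30 replicates and 59.4, 99.8 and 190 over the 29, and ranked 6 of 30. The 2 PEG3 probe sets therefore disagree on this array, and the 2 PEG10 probe sets below the filter are too dim to compare.

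On the log2(intensity + 16) scale, saline 30 min replicate 1 minus the mean of the other 29 arrays was 1.91 for NNAT, 1.73 for PEG10 and 1.27 for the brighter PEG3 probe set. The same difference was 0.33 for the dimmer PEG3 probe set and 0.30 for NDN. Of the 7 probe sets, 3 were more than 2-fold higher on this array and the same 3 were the highest of 30. Over all 23999 probe sets, 2.54% were more than 2-fold higher and 9.89% were highest of 30 on it, and because the array chose the genes nothing is read from that difference. Ordered by this difference among 7885 tested probe sets with 1 symbol, NNAT stood at position 23, PEG10 at 36 and PEG3 at 114, while NDN stood at 2182. The brighter PEG3 probe set, at 1.27, lies nearest above the 2-fold limit of 1 log2 unit and the dimmer one, at 0.33, nearest below it.

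**Figure D1:**
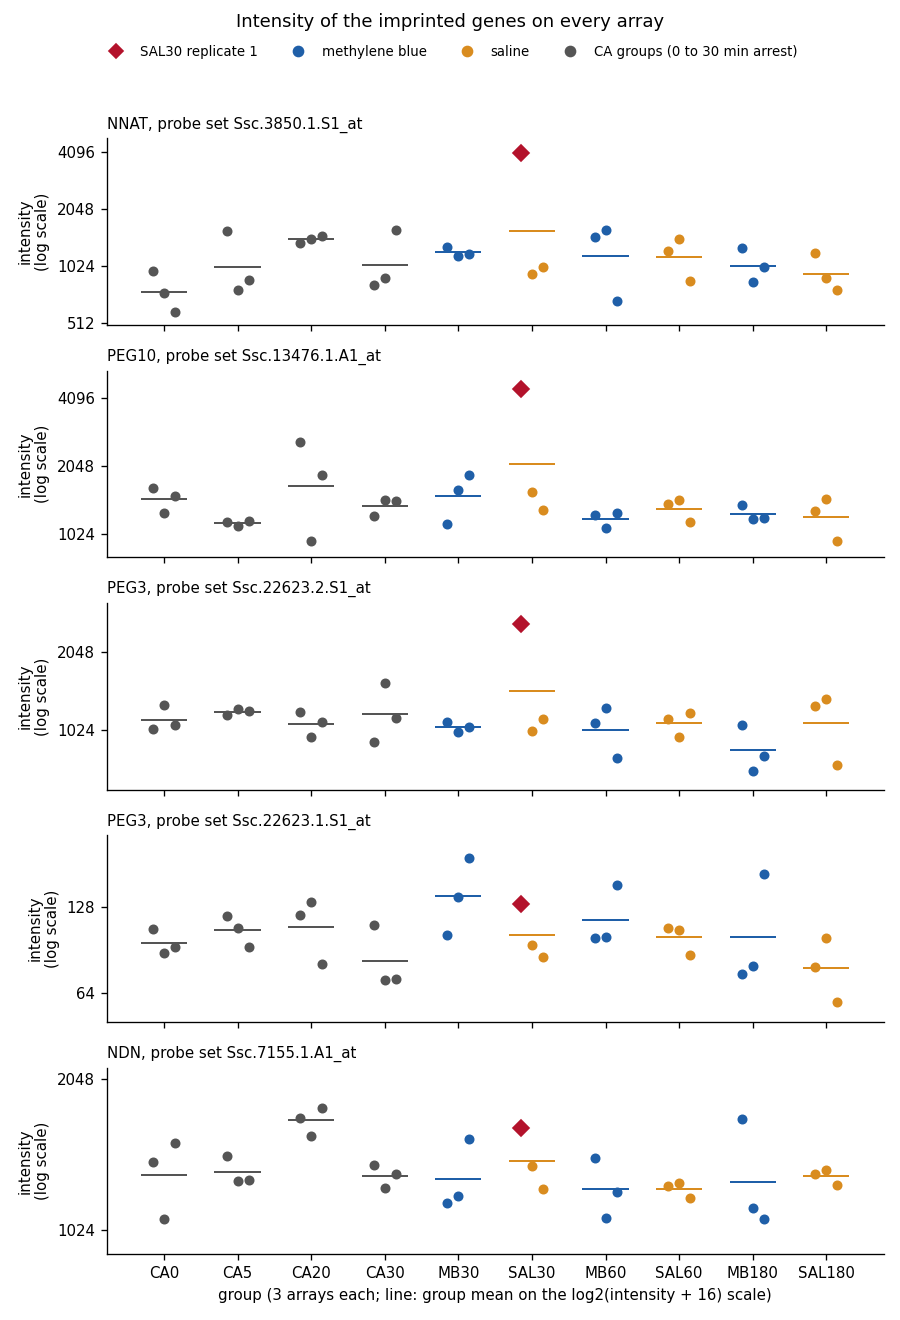
Intensity (log scale) of the 5 probe sets above the filter on each of 30 arrays, by group, with a line at the group mean on the log2(intensity + 16) scale. The red diamond, saline 30 min replicate 1, stands above all other arrays for NNAT (4005), PEG10 (4482) and the brighter PEG3 probe set (2628), and among them for NDN (1637) and the dimmer PEG3 probe set (131).

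Genes of hypothalamic neuropeptides had high values on the same array. OXT, the precursor of oxytocin, had an intensity of 3256 there, against 2.25 to 21.0 on the other 29 arrays. AVP, the precursor of vasopressin, had 4446, against 5.45 to 73.8. PMCH, the precursor of melanin-concentrating hormone of the lateral hypothalamus, had 2854, against 6.92 to 24.3. On the other SAL30 replicates OXT was 2.86 and 4.44, and neither OXT nor PMCH exceeded 24.3 on any other array. HCRT, the orexin precursor, had 921 against 12.5 to 126, and TRH, thyrotropin-releasing hormone, had 589 against 39.4 to 138.

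Of the 31 genes listed for hypothalamus and basal forebrain, 17 are on the array. On saline 30 min replicate 1, 9 of these were more than 2-fold higher, where 2.54% of all probe sets were. The summed intensity of the 17 was 13453 there, against 1013 and 969 on SAL30 replicates 2 and 3. The sum ran between 1001 and 1931 over the methylene blue arrays, 861 and 1395 over the other saline arrays and 596 and 1083 over the CA arrays. OXT, PMCH, GAL and GNRH1 had means below the filter and so entered no test. Not all genes of the list were high: CARTPT, a peptide also made in cortex, had 642 against 240 to 1236, and ESR1, the oestrogen receptor, 36.6 against 6.37 to 58.6.

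**Figure D2:**
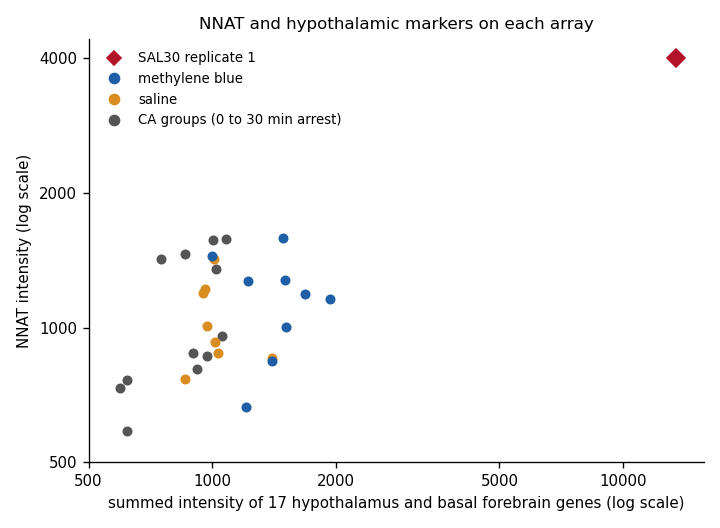
NNAT intensity against the summed intensity of 17 hypothalamus and basal forebrain genes on each of 30 arrays, both on log scales. Saline 30 min replicate 1 lies alone at 4005 and 13453, and the other 29 arrays lie at or below 1588 and 1931.

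Markers of other regions and cells also moved on this array, where 2.54% of all probe sets were more than 2-fold higher. Of 5 thalamus genes on the array, 3 were more than 2-fold higher, with CALB2, the calcium-binding protein calretinin, at 2104 against 88.8 to 521 and TCF7L2, a transcription factor of thalamic neurons, at 267 against 51.6 to 106. Of 8 microglia and leukocyte genes, 6 were more than 2-fold higher, and their sum was 4671, against 1272 to 2490 on the other 29. C1QC, a complement subunit made by microglia, had 2034 against 424 to 1005.

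Of the 5 inhibitory neuron genes on the array, of 13 listed, 2 were the lowest of 30 there and 1 was the highest. CCK, cholecystokinin, had 354 against 4255 to 9792, and NPY, neuropeptide Y, had 88.7 against 595 to 2176. GAD2, an enzyme of GABA synthesis, was highest at 1905 against 711 to 1676, while GAD1, the other such enzyme, had 2885 against 1885 to 3596 and SST, somatostatin, 1683 against 1482 to 2916. Among the probe sets picked as furthest below the other arrays were CHRM1, the M1 muscarinic receptor, with 26.2 against 356 to 1113, LAMP5, a membrane protein of some neurons, with 400 against 2070 to 4234, and ENC1, an actin-binding protein, with 614 against 4011 to 8157. These 3 were chosen by their values and stand for no list. General neuronal genes differed less: SNAP25, a synaptic fusion protein, had 7124 against 8848 to 19969, and UCHL1 had 7974 against 6306 to 9884. Of the 6 such genes on the array, 2 were lowest of 30 there. Their sum was 33371, below the 34759 to 58020 of the other 29 arrays. Across all probe sets 7.23% were lowest of 30 on this array. The part of these markers in the levels of NNAT, PEG10 and PEG3 was not tested, and the whole pattern rests on 1 array.

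The remaining lists had smaller medians on saline 30 min replicate 1 than the hypothalamus, thalamus and microglia lists (1.69, 1.11 and 1.14), beside 0.05 over all probe sets. The median log2 difference was 0.74 for 5 choroid plexus genes, 0.65 for 3 genes of oligodendrocyte precursors, 0.37 for 9 astrocyte genes, and 0.30 for 7 oligodendrocyte and for 7 smooth muscle and pericyte genes. It was 0.20 for 2 ependyma genes, -0.01 for 9 endothelial genes, -0.15 for 6 general neuronal genes, -0.18 for 9 pituitary genes, -0.19 for 10 meningeal genes, -0.30 for 5 striatum genes, -0.37 for 3 red blood cell genes and -0.40 for the 5 inhibitory neuron genes. Single genes of these lists went further: the collagen gene COL3A1 and ALDH1A1, both of the meninges list, were lowest of 30. In the choroid plexus list FOLR1, a folate receptor, was highest at 361 against 102 to 236 and ENPP2, autotaxin, second highest at 4324, while TTR, transthyretin, had 4.22 against 1.26 to 11962. PDYN, prodynorphin, was highest at 796, and CA20 replicate 1 had 732. ARPP21, a cAMP-regulated phosphoprotein of striatum and cortex, was lowest at 223, against 1292 to 4500.

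**Figure D3:**
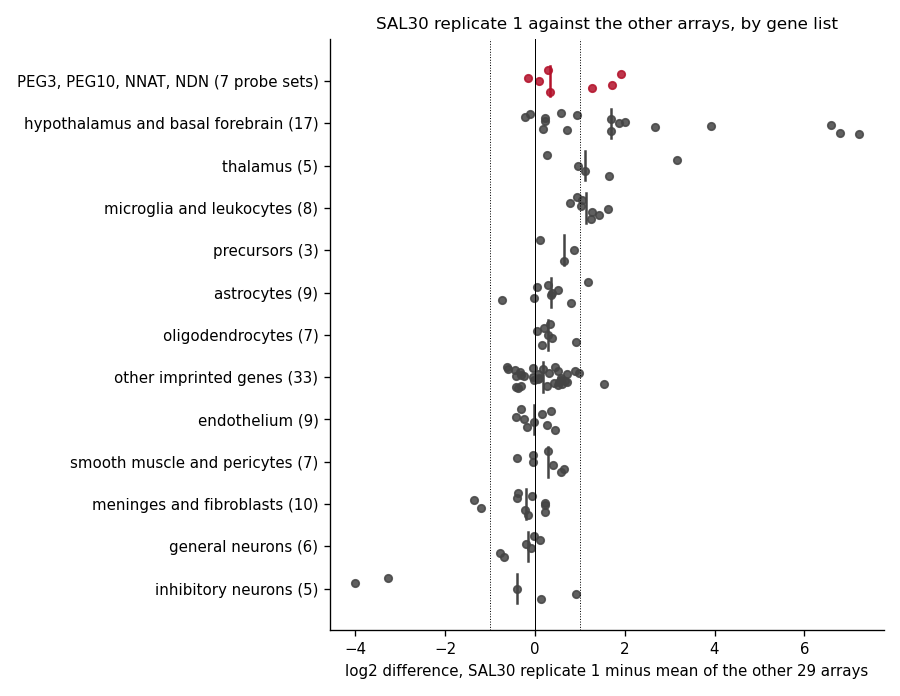
Log2 difference of saline 30 min replicate 1 from the mean of the other 29 arrays, 1 point per gene (per probe set for the 4 imprinted genes), with the median as a bar and dotted lines at 2-fold. NNAT, PEG10 and PEG3 reach 1.91, 1.73 and 1.27, most of the hypothalamus and basal forebrain genes lie above 0 (median 1.69) with OXT at 7.21, and the other imprinted genes centre on 0.17.

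Other imprinted genes were read from a list of 69 genes imprinted in human or mouse, of which 33 are on the array. On saline 30 min replicate 1, CALCR alone of the 33 was more than 2-fold higher, where 2.54% of all probe sets were. None was more than 2-fold lower, where 2.45% of all probe sets were. CALCR, the calcitonin receptor, had 8723 on its brightest probe set, against 3931 and 3419 on SAL30 replicates 2 and 3 and 1710 to 5058 over the other 29 arrays. It is followed by DIRAS3, a small GTPase and growth inhibitor, with 7634 against 2921 to 5968. CD81, a tetraspanin, had 6015 against 3178 to 4761. SNRPN, a splicing protein gene of the Prader-Willi region like NDN, had 4169 against 3902 to 6350, and MEG3, a maternally expressed long RNA, had 2418 against 1646 to 2637. COPG2, DDC and IMPACT were also highest on that array, which makes 6 of 33, and OSBPL5 was lowest. Of all probe sets, 9.89% were highest and 7.23% lowest on that array.

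Genes that neighbour the 4 members in the RefSeq gene order of assembly Sscrofa11.1 were examined after the member values had been seen. The gene next to PEG3, LOC100522375, is annotated as protein coding without a name. It had 2592 on saline 30 min replicate 1, against 490 and 284 on SAL30 replicates 2 and 3 and 239 to 1174 over the other 29 arrays. Its second probe set had 1669 there, against 225 to 934. Neighbours of the other members behaved otherwise. VSTM2L, near NNAT, was lowest at 414 against 573 to 1791, CTNNBL1 next to NNAT had 474 against 313 to 516, CASD1 near PEG10 had 813 against 611 to 1150, and UBE3A near NDN had 1676 against 1633 to 2635.

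Over the groups, none of the 4 genes passed the test in any replicated comparison. The comparisons were 13, fitted with limma over 16799 probe sets, and for the 5 tested probe sets they gave 65 differences. Saline 30 min replicate 1 entered no mean of these differences: the SAL30 comparisons used replicates 2 and 3 in a fit of 29 arrays. The other comparisons were fitted on all 30 arrays, so that array entered their pooled spread. Between groups of 3 arrays, in the fit of 30, the SE was 0.39 for NNAT and 0.31 for PEG10. Between a group of 3 and SAL30 replicates 2 and 3, in the fit of 29, it was 0.33 and 0.26. In the same order of fits, the SE was 0.26 and 0.22 for the brighter and 0.25 and 0.28 for the dimmer PEG3 probe set. For NDN it was 0.15 and 0.16. The values of the 2 fits thus differ in group size as well as in the arrays fitted. Of the 65 differences, 0 had a Benjamini-Hochberg adjusted p under 0.05, 2 had an unadjusted p under 0.05 (NNAT and NDN, both in CA20 against CA0), and the smallest limma adjusted p was 0.222. The share of all probe sets that passed was 0% for CA5, 0.0119% for CA20 and for CA30, 0.173% for SAL30 replicates 2 and 3, 0.315% for SAL60 and 0.875% for SAL180, each against CA0. It was 12.2% for MB30, 12.5% for MB60 and 9.41% for MB180 against CA0, and 1.46% for MB30 against SAL30 replicates 2 and 3, 1.52% for MB60 against SAL60 and 1.9% for MB180 against SAL180. The comparisons against CA0 share their control arrays, so they are not independent of each other.

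NNAT had its lowest group mean in CA0 and its highest, without saline 30 min replicate 1, in CA20. Intensities were 957, 732 and 587 in CA0, 1570, 763 and 862 in CA5, 1354, 1421 and 1460 in CA20, and 809, 877 and 1576 in CA30. All CA20 values lay above all CA0 values, while CA5 and CA30 each had 1 high array and overlapped CA0. NNAT was 0.91 ± 0.39 higher in CA20 than in CA0 on the log2 scale (SE, 3 arrays each), with a 95% interval of 0.10 to 1.72 and limma adjusted p = 0.997. Without saline 30 min replicate 1, whose value widens the pooled spread of NNAT, the same difference had limma adjusted p = 0.795. CA20 and CA0 did not overlap at 9.61% of all probe sets.

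After resuscitation NNAT ranged as widely within groups as between them. It had 1279, 1159 and 1187 in MB30, against 927 and 1006 in SAL30 replicates 2 and 3. At 60 min it had 1444, 1588 and 666 in MB60, against 1220, 1424 and 856 in SAL60. At 180 min it had 1271, 844 and 1005 in MB180, against 1196, 879 and 767 in SAL180. MB30 alone did not overlap its saline group, and 32.4% of all probe sets did not overlap in that comparison. The log2 difference of MB30 from SAL30 replicates 2 and 3 was 0.32 (95% interval -0.36 to 0.99, limma adjusted p = 0.682), that of MB60 from SAL60 was 0.01 (-0.80 to 0.82) and that of MB180 from SAL180 was 0.14 (-0.67 to 0.95).

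MB30 values of NNAT also lay above all 3 CA0 values, with a log2 difference of 0.69 ± 0.39 (SE) and limma adjusted p = 0.259. In that comparison 32.3% of all probe sets did not overlap. When the fit held MB30 and CA0 alone, this difference passed, with limma adjusted p = 0.0410. The summed intensity of the hypothalamus and basal forebrain list was 1503 to 1931 in MB30 and 596 to 1054 in CA0. Of its 8 tested genes CARTPT alone passed in that comparison, where 12.2% of all probe sets passed. OXT had 6.96, 10.3 and 7.69 in MB30, against 11.3, 2.71 and 3.75 in CA0. PMCH had 13.3, 18.1 and 24.1, against 11.8, 9.11 and 7.73, and HCRT 126, 83.2 and 29.8, against 24.9, 17.1 and 24.9. The part of this list in the NNAT values was not tested.

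NDN, the necdin gene, was the steadiest of the 4 genes. Its intensities were 1398, 1081 and 1527 in CA0, 1439, 1281 and 1291 in CA5, 1713, 1575 and 1795 in CA20, and 1380, 1243 and 1325 in CA30. The CA20 arrays lay above all CA0 arrays, in a comparison where 9.61% of all probe sets did not overlap, and CA5 and CA30 overlapped CA0. NDN was 0.35 ± 0.15 higher in CA20 than in CA0 on the log2 scale (SE, 95% interval 0.04 to 0.67), with limma adjusted p = 0.997. The step from CA20 to the next highest group was larger than the pooled SD within groups, 0.34 against 0.18 log2 units, and no other step in the order of the 10 groups was.

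Across the resuscitated groups NDN hardly differed between the arms. It had 1162, 1199 and 1558 in MB30, against 1373 and 1236 in SAL30 replicates 2 and 3. It had 1427, 1085 and 1222 in MB60, against 1257, 1272 and 1187 in SAL60, and 1701, 1135 and 1080 in MB180, against 1325, 1349 and 1262 in SAL180. The methylene blue arrays overlapped the saline arrays at each time. Log2 differences were -0.01 (95% interval -0.35 to 0.33) at 30 min, 0.00 (-0.31 to 0.31) at 60 min and -0.04 (-0.35 to 0.28) at 180 min, so shifts beyond those bounds are outside the intervals while smaller ones were not resolved with 3 arrays a group.

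Markers of other tissue were also compared between CA20 and CA0, and some of them overlapped. DRD2, the D2 dopamine receptor of striatal neurons, had 197, 54.1 and 146 in CA20, against 3.29, 2.27 and 4.34 in CA0. PDYN had 732, 139 and 392 in CA20, against 32.4, 16.1 and 40.4 in CA0. Such values were not limited to CA20: DRD2 reached 129 in MB30 replicate 2, 241 in SAL30 replicate 2 and 196 in SAL60 replicate 2, and PDYN 423 in CA5 replicate 1. The sum of the 5 striatum genes on the array, of 14 listed, was 2749 to 5694 in CA20 and 2447 to 2749 in CA0, so the groups overlapped at their ends. The sum of 5 thalamus genes did not overlap, with 543 to 743 in CA20 and 263 to 456 in CA0. That of 17 hypothalamus and basal forebrain genes did, with 749 to 1020 and 596 to 1054. Of all probe sets, 9.61% did not overlap between these groups. TTR was 193, 11962 and 116 in CA20, against 1.26, 1.40 and 1.72 in CA0, and the sum of the choroid plexus genes was 2888 to 20031 in CA20 and 2281 to 4142 in CA0, with overlap. The log2 ratio of 3' to 5' signal was 1.42, 2.78 and 3.21 in CA20, against 1.99, 2.16 and 2.41 in CA0, and overlapped too. The part of these features in the NNAT and NDN values of CA20 was not tested.

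PEG10, the retrotransposon-derived gene, showed 2 high CA20 arrays and a low one. Its intensities on the bright probe set were 1625, 1268 and 1497 in CA0, 1158, 1110 and 1165 in CA5, 2610, 955 and 1870 in CA20, and 1234, 1445 and 1427 in CA30. All CA5 values lay below all CA0 values, with a log2 difference of -0.34 ± 0.31 (SE) that did not pass, and 7.14% of all probe sets did not overlap in that comparison. CA20 replicate 1, the highest array after saline 30 min replicate 1, was also the CA20 array with the most PDYN and DRD2.

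PEG10 in the resuscitated pigs had 1131, 1595 and 1858 in MB30, against 1561 and 1301 in SAL30 replicates 2 and 3. It had 1234, 1085 and 1260 in MB60, against 1384, 1447 and 1159 in SAL60, and 1367, 1188 and 1207 in MB180, against 1287, 1466 and 949 in SAL180. Each methylene blue group overlapped its saline group. The log2 differences between the arms were 0.07 at 30 min (95% interval -0.46 to 0.60), -0.15 at 60 min (-0.80 to 0.49) and 0.04 at 180 min (-0.60 to 0.69). MB60 lay below all CA0 arrays (log2 difference -0.29, limma adjusted p = 0.583), in a comparison where 31.9% of all probe sets did not overlap.

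PEG3, the zinc finger gene, had no CA group apart from CA0 on its brighter probe set. The values were 1034, 1282 and 1073 in CA0, 1176, 1237 and 1218 in CA5, 1205, 970 and 1102 in CA20, and 924, 1554 and 1144 in CA30. Each CA group overlapped CA0, and the log2 differences from CA0 lay between -0.05 and 0.10. After resuscitation the values were 1107, 1013 and 1056 in MB30, against 1016 and 1135 in SAL30 replicates 2 and 3, and 1097, 1244 and 802 in MB60, against 1134, 971 and 1197 in SAL60. At 180 min PEG3 had 1078, 715 and 820 in MB180, against 1268, 1355 and 757 in SAL180. MB180 was the lowest group, 0.26 log2 units below the next, where the pooled SD within groups was also 0.26. It was at a log2 difference of -0.38 from CA0 (95% interval -0.91 to 0.14, limma adjusted p = 0.360) and of -0.34 from SAL180 (-0.87 to 0.19, limma adjusted p = 0.507).

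The dimmer PEG3 probe set was highest in MB30, with 102, 139 and 190, against 94.0 and 85.3 in SAL30 replicates 2 and 3 and 107, 87.8 and 92.2 in CA0. MB30 did not overlap SAL30 replicates 2 and 3, as was so for 32.4% of all probe sets, and the log2 difference was 0.56 (95% interval -0.02 to 1.14, limma adjusted p = 0.333). From CA0 it was 0.48 ± 0.25 (SE), the difference with the smallest limma adjusted p of the 65, 0.222. The brighter probe set of the same gene had -0.09 in that comparison. Over 29 arrays the 2 PEG3 probe sets had a Pearson correlation of -0.22, so neither can stand for the other.

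The difference between methylene blue and saline at 180 min minus that at 60 min was 0.12 for NNAT, 0.19 for PEG10, -0.25 for the brighter and 0.13 for the dimmer PEG3 probe set, and -0.04 for NDN, on the log2 scale. None passed, and 0% of all probe sets passed. The 95% interval for NNAT, -1.02 to 1.27, is the widest of these.

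Keeping saline 30 min replicate 1 in the SAL30 mean changes the sign of several differences, which are given as values without a test. SAL30 minus CA0 was 1.05 with all 3 replicates and 0.37 with replicates 2 and 3 for NNAT, 0.52 and -0.03 for PEG10, 0.36 and -0.07 for the brighter PEG3 probe set, and 0.09 and -0.02 for NDN. MB30 minus SAL30 was -0.36 with all 3 replicates and 0.32 with replicates 2 and 3 for NNAT, -0.48 and 0.07 for PEG10, -0.45 and -0.02 for the brighter PEG3 probe set, and -0.12 and -0.01 for NDN. The dimmer PEG3 probe set had 0.08 and -0.08 against CA0, and 0.40 and 0.56 for MB30 minus SAL30. A single array thus moves NNAT, PEG10 and the brighter PEG3 probe set by more than 0.4 log2 units in both comparisons, and the others by less.

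**Figure D4:**
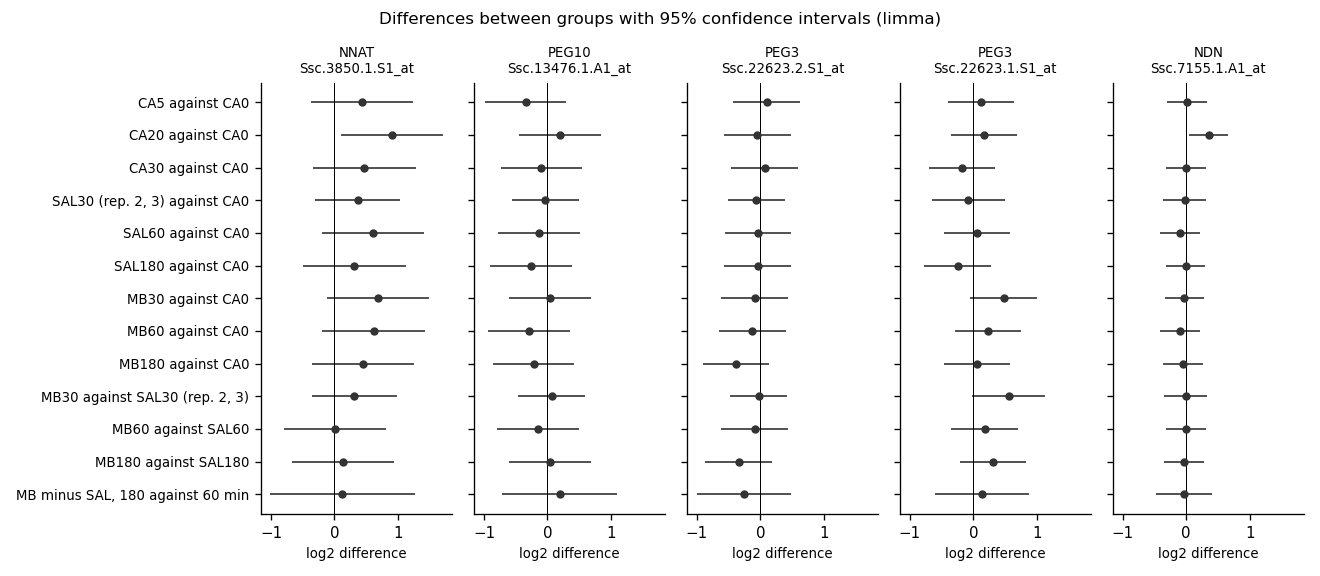
Log2 differences with 95% confidence intervals from limma for the 5 tested probe sets in 13 comparisons, the first-named group minus the second. Only the intervals of NNAT (0.10 to 1.72) and NDN (0.04 to 0.67) in CA20 against CA0 leave out 0 before adjustment, and no adjusted p is under 0.05.

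PEG3, PEG10 and NNAT were correlated over the 30 arrays, and much less so without saline 30 min replicate 1. These correlations describe arrays that share groups and scaling, and have no test. Over 30 arrays Pearson r was 0.62 for PEG3 with PEG10, 0.56 for PEG3 with NNAT and 0.57 for PEG10 with NNAT, and over the 29 arrays without saline 30 min replicate 1 it was 0.23, 0.19 and 0.17. PEG10 with NDN kept 0.52 over 29 arrays, where it was 0.54 over 30. Spearman's rho for the first 3 pairs was 0.14, 0.22 and 0.19 over 30 arrays, where ranks give the single array less weight.

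**Figure D5:**
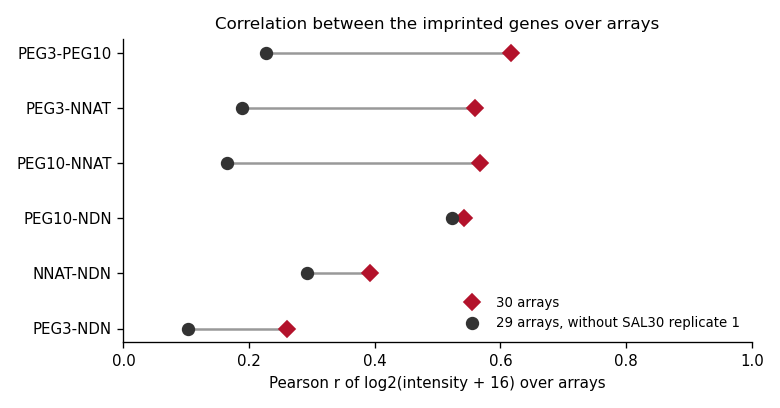
Pearson correlation of log2(intensity + 16) between pairs of the 4 genes over 30 arrays (red diamonds) and over 29 arrays without saline 30 min replicate 1 (black circles). The 3 pairs among PEG3, PEG10 and NNAT fall to 0.17 to 0.23 from 0.56 to 0.62, and PEG10 with NDN stays at 0.52.

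The genes whose pattern was most like the mean profile of the 4 members were ranked among 7880 tested probe sets with another single symbol. Over 29 arrays these were LOC100738087 (Pearson r 0.72), RGS14, a regulator of G protein signalling (0.68), LOC100621607 (0.68), LOC100522375, the gene next to PEG3 (0.67 and, on its second probe set, 0.61), ARPP21 (0.64), BPHL (0.64), the adhesion molecule ALCAM (0.63), PDYN (0.63) and the calmodulin-dependent kinase gene CAMK2D (0.61). LOC100522375 followed PEG10 (0.66) more closely than its neighbour PEG3 (0.18) over these arrays. The arrays with the highest mean profile were CA20 replicates 1 and 3. Over all 30 arrays the order was led by VWA5A (Pearson r 0.84, Spearman's rho 0.55), and C1QC (0.78 and 0.44) and AVP (0.74 and 0.20) came in among the first 10, with values that include the array that drew attention to the members. AVP was at or below 73.8 on all other arrays. ARPP21 is among the most alike genes over 29 arrays and was lowest of 30 on saline 30 min replicate 1, where NNAT, PEG10 and PEG3 were highest.

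Genes that act with the 4 members gave few values, since 5 of 15 listed are on the array. TGFBR1, a transforming growth factor beta receptor, had 482 on saline 30 min replicate 1, against 151 to 278 on the other 29. ATP2A2, the calcium pump of the endoplasmic reticulum that neuronatin is thought to modulate, had 5416 against 5298 to 9591. EID1, a partner of necdin in human and mouse cells, had 1779 against 1162 to 1940. Of the 4 that were tested, CTNNB1, beta-catenin, passed in MB60 against CA0 alone (log2 difference 0.37, limma adjusted p = 0.0410). Its MB60 and CA0 values overlapped, and 12.5% of all probe sets passed in that comparison.

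Some other imprinted genes passed in the methylene blue groups against CA0. Of 30 tested, 6 passed in MB30, 7 in MB60 and 7 in MB180, which is to be read against the 12.2%, 12.5% and 9.41% of all probe sets. They went both ways: 4 were higher and 2 lower in MB30, and 4 higher and 3 lower in MB60 and in MB180. NAP1L4 was lower in each, with log2 differences of -0.53 in MB30, -0.36 in MB60 and -0.39 in MB180. KCNQ1, a potassium channel, had 107 ± 15.2 in MB30 and 39.6 ± 5.26 in CA0 (SD, 3 arrays each), a log2 difference of 1.15 with limma adjusted p = 0.000954. IGF2, insulin-like growth factor 2, had 361 ± 41.5 in MB30 and 139 ± 41.7 in CA0 on the probe set with the highest mean log2 value over all arrays, a log2 difference of 1.31 with limma adjusted p = 0.00117. Of the 8 tested IGF2 probe sets, 3 passed in that comparison and 5 did not, among them an about equally bright one at 0.81 (limma adjusted p = 0.175) and a dimmer one at -0.40. The counts are fragile. MB30 fell to 3 without CA0 replicate 1, CA0 replicate 2 or MB30 replicate 2. MB60 fell to 3 without CA0 replicate 3 and to 4 without MB60 replicate 2. MB180 fell to 4 without CA0 replicate 1 or 2 and to 3 without CA0 replicate 3, MB180 replicate 2 or MB180 replicate 3.

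Against saline, 0 of the 30 passed at 60 or 180 min, where 11 and 8 had an unadjusted p under 0.05. Over all 16799 probe sets, 2910 and 3121 had such a p at those times, and 1.52% and 1.9% passed. The interaction between arm and time gave 0, with 1 below 0.05 before adjustment, beside 490 of the 16799 probe sets. At 30 min KCNQ1 alone of the 30 passed against SAL30 replicates 2 and 3, where 1.46% of all probe sets passed. It had 107 ± 15.2 in MB30 (n = 3) and 42.8 ± 8.19 in those replicates (n = 2). The log2 difference was 1.07 with limma adjusted p = 0.0180. That call was lost without SAL30 replicate 2 (adjusted p = 0.0797), SAL30 replicate 3 (0.153) or MB30 replicate 3 (0.0660). In CA5, CA20 and CA30 and in each saline group against CA0, 0 of 30 passed by limma, with 0 to 4 below 0.05 before adjustment. Over the 16799 probe sets the number below 0.05 ran from 317 in CA5 to 1466 in SAL180. Whether the members and the other imprinted genes differ in their response was not tested.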

How the data were processed

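Intensity on a linear scale, 1 column per array, is what the authors deposited. Per the submitters' processing notes they used GCOS; its version and signal algorithm are not given in the labels or files. Of 24123 probe sets, 124 control probe sets were removed. Symbols came from the platform's probe table, and the RefSeq table of assembly Sscrofa11.1 served for names and gene order. No genome build is named for the array values, so no positions are given.

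The scale of analysis was log2(intensity + 16). A filter at the 30th percentile of the mean (near 29.5 in intensity) left 16799 probe sets. limma 3.58.1 in R 4.3.3 fitted a mean for each of 10 groups, with empirical Bayes moderation along an intensity trend. Tests were two-sided, and Benjamini-Hochberg adjustment at 0.05 ran over all tested probe sets within a comparison. The fit was checked on simulated data. Where a gene has several probe sets, lists use the one with the highest mean. Arrays carry no counts, so precision is limited by the 3 arrays per group.

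The members, the gene lists and the comparisons were chosen with earlier results of these data known. Named genes were all members, the 10 genes most like them, genes furthest from the other arrays on saline 30 min replicate 1, and genes of the lists. The neighbouring genes, KCNQ1, IGF2 and the DRD2, PDYN, TTR and thalamus list values of CA20 were named after values were seen. The alternatives changed the pseudocount (1 or 64), the filter (none, or 50th percentile), the normalization (quantile, or median centring) and the model: only the groups compared, a flat prior variance, weights per array, a block for replicate number, and 1 array left out at a time.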

Additional observations from a re-analysis of the deposited data

How the results depend on the processing

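For the 4 imprinted genes, 1114 of 1115 recomputed differences stayed on their side of the threshold, with adjusted p above 0.05. The exception was NNAT in MB30 against CA0 when those groups alone were fitted (adjusted p = 0.0410), which made 1 call where the fit of all groups made 0. Another 97 differences, none of them called, changed sign. The mean correlation between the 4 genes over arrays was 0.49 over 30 arrays and 0.25 without SAL30 replicate 1. Over other pseudocounts and normalizations, the difference of saline 30 min replicate 1 from the other 29 arrays ran from 1.81 to 1.93 for NNAT and 1.63 to 1.74 for PEG10. It ran from 1.17 to 1.30 for the brighter PEG3 probe set, 0.23 to 0.38 for the dimmer one and 0.20 to 0.37 for NDN. With the replicate number as a block the number of calls among the members was 0 in each comparison. The replicate numbers showed no sign of pairing the pigs. Same-numbered arrays of different groups had correlations of their deviations between -0.38 and 0.37, and arrays of other numbers between -0.38 and 0.33. Of 30 arrays, 8 correlated best with an array of their own number. The counts of other imprinted genes, an alternative chosen after seeing the data, ran over all alternatives from 3 to 7 in MB30, 1 to 9 in MB60 and 2 to 8 in MB180 against CA0, and from 0 to 2 in each comparison with saline. KCNQ1 in MB30 against SAL30 replicates 2 and 3 also lost its call when those groups alone were fitted (adjusted p = 0.124). The cause of these changes was not tested. Dim probe sets, among them 2 of PEG10, limit what can be read from low signal over background.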
